A study of Mus musculus with 12 samples.

Results

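The genes described here encode the core protein families of pre-mRNA splicing: the SR proteins, the heterogeneous nuclear ribonucleoproteins (hnRNPs), the small nuclear ribonucleoprotein (snRNP) proteins whose gene names begin with Snrp, and the SF3a and SF3b subunits of the U2 snRNP. They were taken by gene name from the deposited table (names beginning Srsf, Hnrnp, Snrp or Sf3a/Sf3b followed by their member letter or number, with entries marked as pseudogenes by the suffix -ps left out). This gave 50 of 11494 listed genes: 10 SR, 20 hnRNP, 11 snRNP and 9 SF3 genes. Their level in neutrophils was compared between mice given a control bone marrow transplant and mice given a transplant labelled LOY, for loss of the Y chromosome, with 6 libraries in each group. Each library was made from 10000 blood neutrophils sorted as Ly6G-positive, CD115-negative and RFP-positive, RFP being a red fluorescent protein, so that host cells without RFP lay outside the gate. The labels give genotype and treatment as Control in one group and LOY in the other. The strain, the age, the interval after transplantation and how the Y chromosome was lost are not given in the sources used here, and nothing says that each library came from its own mouse, so p-values measure the spread between libraries, which may be technical. Snrpert, which matched the name rule, is annotated as a processed pseudogene of Snrpe and was kept.

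Splicing removes introns in 2 chemical steps carried out by the spliceosome, which is built on each intron from the U1, U2, U4/U6 and U5 snRNPs. Sm proteins form a ring around the snRNA of most of these particles, U1-specific proteins stabilise pairing at the 5′ splice site, and the SF3 complexes anchor U2 at the branch point. SR proteins bind exonic enhancers and recruit this machinery, whereas hnRNPs coat nascent transcripts and often block or redirect splice site choice. Many SR and hnRNP genes limit their own expression by including a poison exon that sends the transcript to nonsense-mediated decay. In granulocytes, regulated intron retention is a known layer of gene control, and SF3B1 and SRSF2 are recurrently mutated in human myeloid disease. The values here are reads per gene, which cannot separate productive from poison-exon transcripts and do not measure splicing.

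One feature shared by many of these genes that the name rule did not use lies in their promoters. RefSeq start sites on GRCm38.p6 were matched for 44 of the 50 genes, giving 58 windows of 250 bases directly upstream of a start site. The letters CGGAAG, the core of the sequence bound by ETS-family factors, were present on either strand in 30 of the 58 windows (51.7%), against 26.8% of 10130 windows of genes in the deposited table and 13.6% of 32851 windows of all genes. All 8 windows of SF3 genes held it, as did 7 of 10 snRNP windows, 7 of 13 SR windows and 8 of 27 hnRNP windows. The hnRNP share, 29.6%, was near the 26.8% of genes in the table. Windows of the same gene can overlap, as those of Sf3b2 and of Srsf4 do, so windows are not independent. The 8 SF3 windows belong to 7 genes, and shares per gene were not counted. The letters GGGCGG, a GC box, were in 70.7% of the windows, against 56.5% for genes in the table, and CCAAT in 44.8%, against 34.8%. The letters CACGTG, an E-box, were in 8.62%, against 8.53%, and those of a TATA box, TATAAA, in 8.62%, against 6.46%. These 5 motifs were searched on both strands and none contains another, although neighbouring matches can touch. The median window held 20.5 CpG dinucleotides, against 16 for genes in the table. These are descriptions of letters and not of bound sites, and the higher CpG content of the windows was not separated from the motif counts. The promoters below belong to the matched gene with the highest level per kb of exon in each family, and to Snrpa, which had the smallest p-value of the 48 genes tested. Each is written 5′ to 3′ along the gene's own strand, with the matches to the 5 motifs, or to their reverse complements, in capitals. The window of Srsf5 was chr12:80945249-80945498 (plus strand), that of Hnrnpk chr13:58402118-58402367 (minus strand), that of Snrpe chr1:133610281-133610530 (minus strand), that of Sf3b1 chr1:55027479-55027728 (minus strand) and the outer one of 2 windows of Snrpa chr7:27196272-27196521 (minus strand).
Srsf5: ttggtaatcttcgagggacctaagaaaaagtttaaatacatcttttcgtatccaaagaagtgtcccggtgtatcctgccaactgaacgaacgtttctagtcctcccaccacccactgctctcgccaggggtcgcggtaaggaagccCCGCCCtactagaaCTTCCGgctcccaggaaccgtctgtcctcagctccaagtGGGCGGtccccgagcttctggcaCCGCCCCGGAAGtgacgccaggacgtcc
Hnrnpk: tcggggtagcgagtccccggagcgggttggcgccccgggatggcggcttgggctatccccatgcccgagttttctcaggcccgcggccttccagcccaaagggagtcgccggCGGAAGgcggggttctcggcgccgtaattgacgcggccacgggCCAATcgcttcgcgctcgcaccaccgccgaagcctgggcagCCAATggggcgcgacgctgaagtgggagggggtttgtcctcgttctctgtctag
Snrpe: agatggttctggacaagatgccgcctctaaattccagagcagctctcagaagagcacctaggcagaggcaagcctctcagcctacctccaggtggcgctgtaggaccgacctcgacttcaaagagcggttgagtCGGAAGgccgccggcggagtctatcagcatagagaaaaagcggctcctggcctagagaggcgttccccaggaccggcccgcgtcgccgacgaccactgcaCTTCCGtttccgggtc
Sf3b1: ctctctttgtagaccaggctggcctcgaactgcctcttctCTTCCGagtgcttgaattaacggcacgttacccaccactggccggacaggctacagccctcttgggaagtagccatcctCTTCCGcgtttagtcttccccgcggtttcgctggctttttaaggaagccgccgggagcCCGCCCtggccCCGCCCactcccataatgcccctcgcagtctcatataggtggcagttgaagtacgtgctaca
Snrpa: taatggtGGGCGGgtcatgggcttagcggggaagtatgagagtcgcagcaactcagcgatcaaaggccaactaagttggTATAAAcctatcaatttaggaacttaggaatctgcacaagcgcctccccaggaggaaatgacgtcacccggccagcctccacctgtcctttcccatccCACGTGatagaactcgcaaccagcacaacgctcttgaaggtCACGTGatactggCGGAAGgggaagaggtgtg
Among these, Srsf5 held CGGAAG on both strands beside GC boxes, and Hnrnpk held 1 CGGAAG and 2 CCAAT boxes. Snrpe and Sf3b1 each held CGGAAG at 2 places. The Snrpa window held an E-box at 2 places, beside a TATA box, a GC box and the ETS core. No motif is tied here to a difference between the groups.

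The Control libraries held 13743581 to 18459792 recovered reads in listed genes and the LOY libraries 17097739 to 19616066. Control 1, 2, 6 and 17 held fewer than any LOY library, and the part of depth in the low values was not tested. Ddx3y, carried on the Y chromosome, lay between 650.4 and 1348 normalized reads in Control and between 0 and 366.5 in LOY, and Eif2s3y between 1478 and 3170 and between 0 and 985.6. The library LOY 4 held both highest LOY values, while the other LOY libraries were at most at 32.0 for Ddx3y and 74.6 for Eif2s3y. In the libraries Control 1, 2 and 12, between 17.3% and 21.7% of listed genes were at 0, against 6.59% to 11.6% in the other 9. The 8 neutrophil markers, among them S100a8, S100a9 and Ly6g, summed to 82588 to 132628 RPM (reads of the listed genes, scaled to a common total per library) in Control and 85262 to 116068 in LOY. Erythroid markers summed to 4283 to 8889 and to 5906 to 38011 RPM, monocyte markers to 502.2 to 858.9 and to 676.5 to 1011, and platelet, B cell, T and NK cell, eosinophil and immature myeloid markers to under 89 each. In the table were 3 of 6 T and NK cell, 2 of 6 monocyte, 1 of 4 eosinophil and 2 of 5 immature myeloid markers, with Cd3e, Ncr1, Ccr2, Cx3cr1, Prg2, Epx, Elane and Mpo not among the listed genes. None of the 8 marker lists had a member past the adjusted threshold in limma, and 2 markers had an unadjusted p under 0.05. Their part in the results below was not tested.

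Splicing factor transcripts covered a wide range of levels in neutrophils, and in 3 of the 4 families 1 gene led in every library. Srsf5 and Hnrnpk held the top 2 places, in an order that depends on the gene length used. Per kb of all annotated exon bases, Srsf5 had a mean of 1785 normalized reads per kb over the 12 libraries, followed by Hnrnpk at 1430, Hnrnpc at 910.1, Hnrnpf at 885.5, Snrpb at 842.8, Hnrnpa2b1 at 840.8, Sf3b1 at 825.8 and Sf3b2 at 768.9. Srsf5 was the top SR gene in 12 of 12 libraries and made up 61.9% ± 5.41 (SD, n = 12) of the summed level per kb of the SR genes. Hnrnpk, which binds cytosine-rich RNA and DNA through KH domains, was the top hnRNP gene in 12 of 12 and made up 23.1% ± 2.54. Snrpb, which encodes the SmB protein of the Sm ring, led the snRNP genes in 12 of 12 with 54.2% ± 8.79. In the SF3 family Sf3b1 led in 8 libraries and Sf3b2 in 4, so the order of these neighbours was within the spread between libraries. At the other end, Hnrnpr stood at 9.54, Snrpf at 11.1 and Snrpa1 at 5.98 per kb. The median of the 50 genes was 88.5 per kb, against 48.8 for all listed genes. With the median length of protein-coding transcripts in place of all exon bases, a choice made after seeing the data, Hnrnpk stood at 9711 per kb and Srsf5 at 4753, so the top place changed hands. On that length Sf3b2 (2525) stood above Sf3b1 (1516), Hnrnpa2b1 came second among the hnRNP genes and Snrpc second among the snRNP genes, and Hnrnpr was at 83.2. Srsf5, Hnrnpk and Snrpb led their families with either length. Their percent shares of the family were computed on all exon bases only and also depend on the length used.

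**Figure D1:**
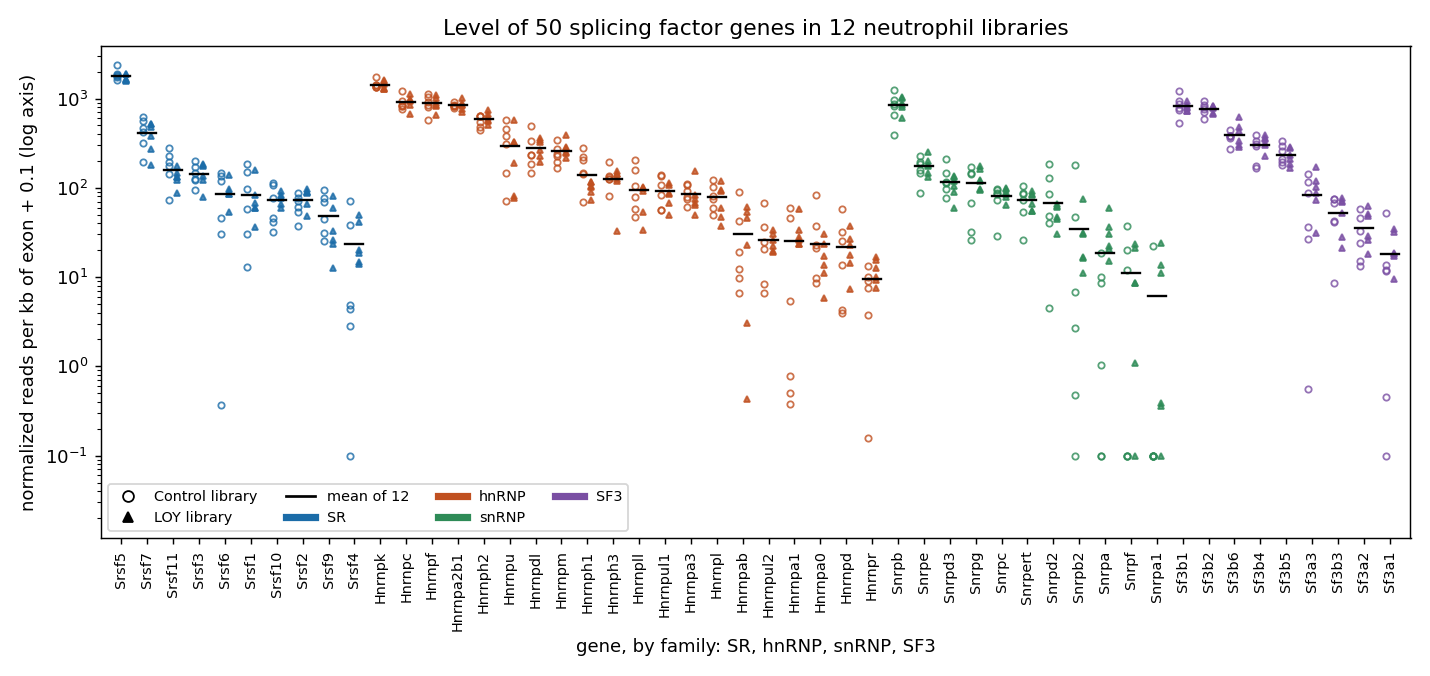
Level of each of the 50 genes in normalized reads per kb of exon, with 0.1 added so that values of 0 can be drawn on the log axis; open circles are the 6 Control libraries, triangles the 6 LOY libraries and black lines the means of 12, with genes ordered by mean within each family. Srsf5, Hnrnpk, Snrpb and Sf3b1 head their families with both groups interleaved, and the spread widens toward the low end, where several Control libraries lie at 0.

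Between Control and LOY libraries, no gene of the 4 families passed the test. Some abundant members, such as Hnrnpk, lay close together in both groups, while others, such as Hnrnpu and Hnrnpll, varied widely within the groups. Of the 48 genes with enough reads to test, 0 passed an adjusted p of 0.05 in limma, against 2 of all 9742 genes tested (0.0205%). edgeR called 0 of the 48 and 0 of 9802 genes (0.0%, with 288 at an unadjusted p under 0.05, of which 1 was a splicing factor, Hnrnph1). DESeq2 called 0 of the 50 and 54 of 11148 genes (0.484%), and the authors' deposited table lists 0 of the 50 among its 54 of 10960 past an adjusted p of 0.05 (0.493%). For the 50 genes both hold the same log2 fold changes and unadjusted p-values, so they are not separate results. At an unadjusted p under 0.05 in limma, 2 of the 48 were higher in LOY (Snrpa and Hnrnpa1, with 4.4% of all genes in that direction) and 1 was lower (Hnrnph1, with 1.63% of all genes). The smallest adjusted p was 0.644, for Snrpa. The estimated log2 difference in limma, LOY against Control, was positive for 29 genes and negative for 19. Among all 9742 genes tested, 5935 were positive and 3807 negative, so most estimates were positive there too. edgeR gave 28 positive and 20 negative for the 48, and 4774 and 4968 for all of these genes. The median in limma was 0.10, against 0.14 over all genes tested. Under quantile normalization the median of the 48 was 0.09, against 0.03 over all genes, so which of these medians is higher depends on the scaling. In 0 of the 48 genes did the 6 LOY values lie wholly above or below the 6 Control values, against 28 of 9742 genes (0.287%). In bulk RNA, fewer cells with a transcript and less of it per cell cannot be told apart.

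The intervals show how large a difference these libraries leave room for. For 23 of the 48 genes (47.9%) the 95% interval of the difference lay within 2-fold in either direction, compared with 30.7% of all genes tested. For 11 (22.9%) it lay within 1.5-fold, compared with 12.8%. The 24 genes with a mean of 500 normalized reads or more had a median standard error of 0.24 on the log2 scale, and 19 of them (79.2%) were bounded within 2-fold, compared with 72.4% of all genes at that level. Of the 24 tested genes with a lower mean, 4 (16.7%) were so bounded. Summed over all members, the splicing factors took 4274 ± 357 RPM (SD, n = 6) in Control and 4250 ± 373 in LOY. The difference between these means is smaller than the spread within either group.

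**Figure D2:**
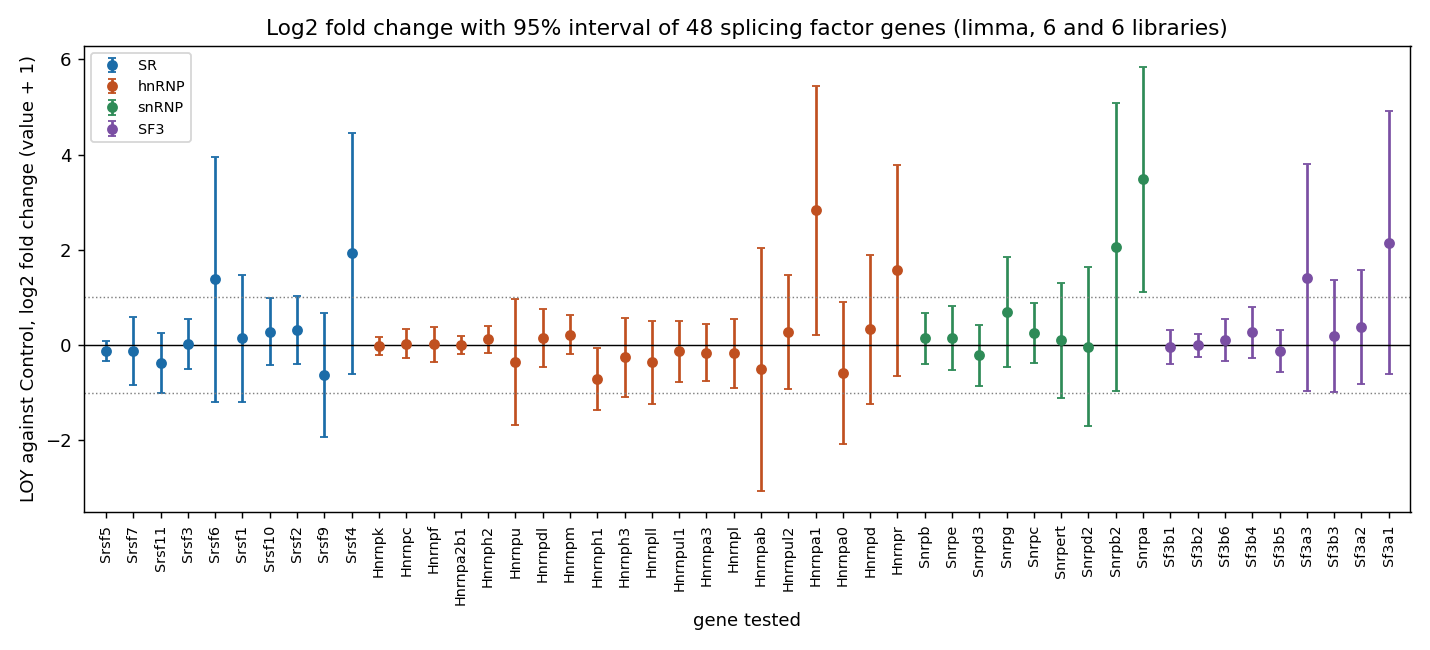
Log2 difference between LOY and Control libraries on the log2(value + 1) scale with its 95% interval from limma (6 libraries a group) for the 48 genes tested, ordered by level within each family; dotted lines mark a 2-fold difference in either direction. Intervals are mostly narrower at the abundant end of each family than at the other, with Hnrnpu an exception, and those of Hnrnph1, Hnrnpa1 and Snrpa leave out 0 before adjustment.

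Among the SR genes, which promote exon inclusion, 0 of 10 passed the test. Estimates were positive for 6 and negative for 4 in limma (5 and 5 in edgeR), with a median log2 difference of 0.08 in limma. As a family they took 801.2 ± 73.3 RPM in Control and 756.5 ± 57.6 in LOY (SD, n = 6). Srsf5 (chromosome 12, 80945504 to 80950507, GRCm38) lay at 9367, 6893, 7482, 7245, 6401 and 7147 normalized reads in the libraries Control 1, 2, 6, 12, 17 and 18, and at 7584, 6336, 7535, 6569, 6515 and 6364 in LOY 4, 5, 9, 10, 15 and 19. Apart from the single high library of Control 1, both groups covered the same band. Its log2 difference was -0.12 ± 0.10 (SE), with an interval from -0.32 to 0.09. Srsf7, a zinc-knuckle SR protein that takes part in mRNA export, ranged from 697.8 to 2211 (median 1580) in Control and from 646.1 to 1848 (median 1538) in LOY, and its difference was -0.13 ± 0.33. Srsf11 ranged from 609.9 to 2356 in Control and from 743.9 to 1468 in LOY, with a difference of -0.37 ± 0.29. In both genes the groups overlapped, and the highest Srsf11 values, in Control 1, 2, 17 and 18, lay above every LOY library. Srsf4, the only SR gene of low level among those named, was at 9.68, 15.4, 17.1, 0, 252 and 137 in Control and at 147, 72.1, 52.8, 49.0, 176 and 65.7 in LOY. Of its 6 control values 4 lay below every LOY value and 1 lay above all of them, giving a log2 difference of 1.93 ± 1.17 (limma unadjusted p = 0.122), which was -0.04 without Control 1, 2 and 12. Srsf2, which recognises exonic enhancers of either guanine-rich or cytosine-rich sequence, lay at 111 to 260 in Control and 141 to 285 in LOY, and Srsf1, the founding family member, at 74.2 to 1067 and 208 to 894.

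Among the hnRNP genes, 10 estimates were positive and 10 negative, with a median of -0.01 and 0 of 20 past the test. The family took 2167 ± 263 RPM in Control and 2160 ± 263 in LOY. Hnrnpk (chromosome 13, 58391142 to 58403343) lay at 8642, 8810, 11248, 9057, 8803 and 9226 in Control and at 10425, 9305, 10136, 8376, 8352 and 8564 in LOY, in the order of libraries given for Srsf5. Control 6 was the highest and LOY 15 the lowest, and the log2 difference was -0.02 ± 0.09, with an interval from -0.21 to 0.17. Hnrnpc, which binds uridine tracts and packages nascent transcripts, ranged from 3294 to 5224 in Control and 2888 to 4898 in LOY, a difference of 0.03 ± 0.14. Hnrnpf, which binds runs of guanines, ranged from 1757 to 3431 and from 1987 to 3345, a difference of 0.02 ± 0.17. Hnrnpa2b1, which also sorts RNA for transport, ranged from 5224 to 6045 and from 4616 to 6674, and its coefficient of variation over the 12 libraries, 9.24%, was close to the 9.79% of Hnrnpk. The median coefficient of variation was 35.8% over the 50 genes and 61.4% over all listed genes.

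Hnrnph1 had the smallest p among members with a negative estimate. Its limma estimate was the lowest of the 48, while in edgeR and the authors' deposited table that of Hnrnpa0 was lower (-0.82 and -0.85). Hnrnph1 is the close relative of Hnrnpf that likewise reads guanine runs, and lies on chromosome 11 from 50376990 to 50386528. Control libraries held 1284, 1640, 824, 1185, 846 and 402 normalized reads, and LOY libraries 678, 615, 522, 427, 597 and 672. Of the 6 control values 5 lay above every LOY value, and Control 18, at 402, lay below all of them. The mean was 1030 ± 432 in Control and 585.0 ± 96.4 in LOY (SD, n = 6), and the log2 difference was -0.70 ± 0.30 (limma unadjusted p = 0.0352, adjusted p = 0.81). edgeR gave -0.80, and the authors' deposited table lists -0.82 with an adjusted p of 0.44. The difference was -0.18 without Control 1, 2 and 12, which hold the 3 highest values, and without Control 18 the groups did not overlap (69 genes, 0.708%) and the adjusted p was 0.293. Set against its X-linked paralog Hnrnph2, the level per kb of Hnrnph1 was 0.143 to 0.624 in Control and 0.131 to 0.230 in LOY.

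Hnrnpa1, a repressor that binds exonic silencers and competes with SR proteins, had a positive estimate and a far lower level (chromosome 15, 103240432 to 103246692). Control libraries held 2.15, 1.28, 146, 16.5, 186 and 0.875 normalized reads, and LOY libraries 107, 180, 89.2, 74.0, 82.2 and 74.3. Of the control libraries 4 lay below every LOY library, while Control 17 lay above all of them and Control 6 above 5 of them. The log2 difference was 2.83 ± 1.20 (limma unadjusted p = 0.0362, adjusted p = 0.81), whereas edgeR, which weighs means, gave 0.80. Without Control 1, 2 and 12 the difference was 1.38. Of its 50-base windows 46.7% also occur in transcripts of other genes, most of them in 1 processed copy, so reads could be lost or split by the authors' counting. Hnrnpu, a scaffold attachment factor that binds chromatin-associated RNA, varied inside both groups: 3631, 4379, 1686, 815, 6622 and 5280 in Control and 6603, 3823, 945, 887, 2174 and 3792 in LOY. Its lowest and highest libraries differed by several fold within each group, and its log2 difference was -0.35 ± 0.61. Hnrnpr, related to Syncrip, ranged from 1.28 to 291 in Control and from 166 to 372 in LOY, with a difference of 1.57 ± 1.02 that was 0.21 without Control 1, 2 and 12. Hnrnpll, which represses variable exons of the CD45 gene in lymphocytes, ranged from 556 to 2364 and from 391 to 1178, and Hnrnpd, which also binds AU-rich elements of unstable mRNAs, from 28.1 to 428 and from 53.6 to 274.

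**Figure D3:**
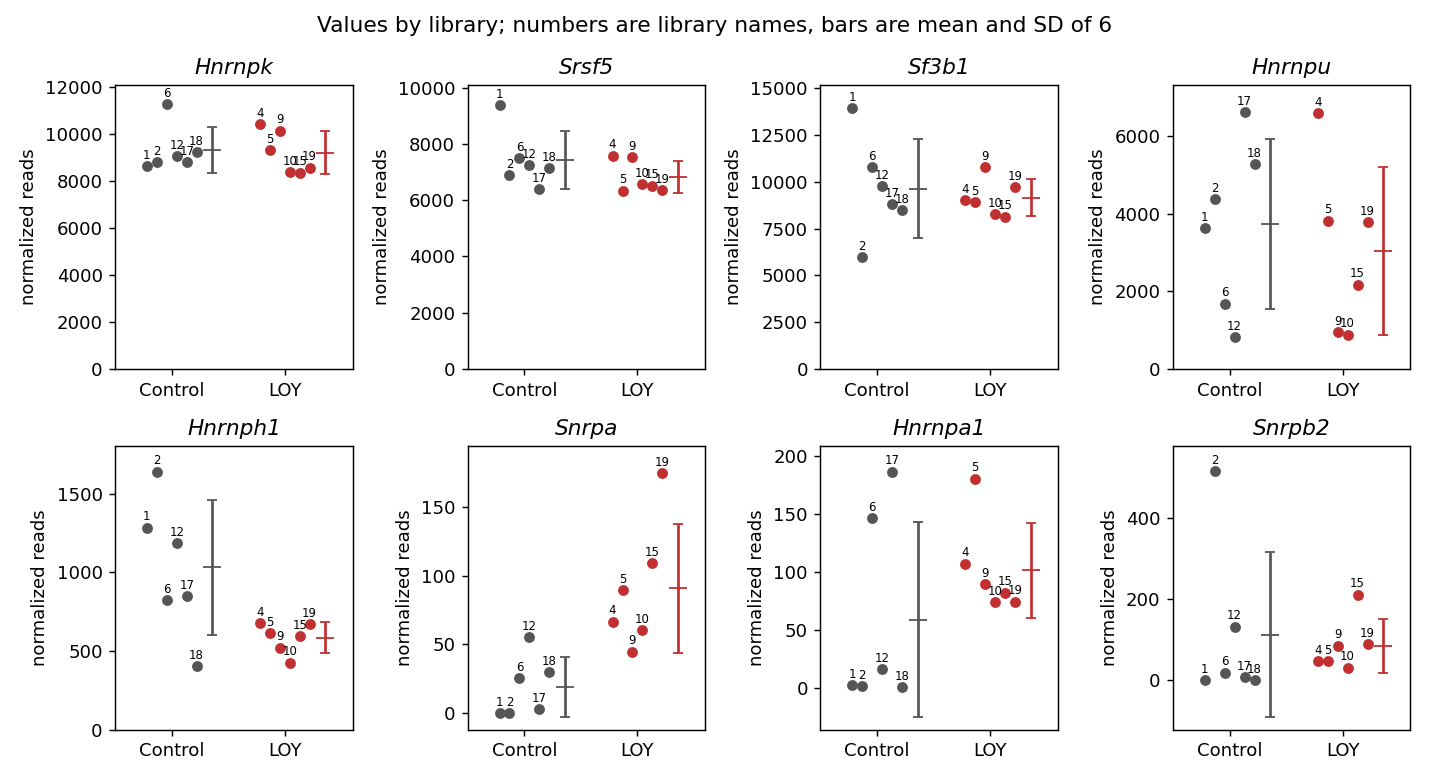
Normalized reads of 8 genes in each library, numbered as in the labels, with the mean and SD of each group of 6 beside the points on linear axes. Hnrnpk, Srsf5 and Sf3b1 overlap between groups, Hnrnpu spreads in both, 5 of 6 control values of Hnrnph1 lie above every LOY value, and Snrpa, Hnrnpa1 and Snrpb2 have several control libraries near 0; an SD bar below 0 reflects skewed values.

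The snRNP genes took 200.9 ± 51.1 RPM in Control and 213.0 ± 23.4 in LOY, and 0 of the 9 tested passed. Estimates were positive for 7 and negative for 2 in limma, beside 5935 and 3807 of all genes tested. In edgeR 6 of the 9 were positive and 3 negative. The Sm ring genes overlapped between the groups. Snrpb (chromosome 2, 130171414 to 130179403) lay at 1308, 762, 1885, 2445, 1610 and 1701 in Control and at 1206, 1674, 1979, 1783, 1576 and 2056 in LOY, so the LOY libraries fell inside the control range. Its log2 difference was 0.15 ± 0.25. Snrpe ranged from 121 to 315 in Control and from 182 to 347 in LOY (0.15 ± 0.31), Snrpd3 from 263 to 718 and from 203 to 472 (-0.21 ± 0.30), and Snrpg from 40.9 to 272 and from 148 to 274 (0.69 ± 0.53). The direction of Snrpg turned to -0.30 without Control 1, 2 and 12. Snrpd2 ranged from 11.5 to 479 and from 78.7 to 173. Snrpf, listed at 0 in Control 1, 2 and 6 and in LOY 15, was too low to test.

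The particle-specific snRNP genes differed among themselves, from the even Snrpc to Snrpa, Snrpb2 and Snrpa1 with libraries at 0. Snrpa, the A protein of the U1 snRNP, which binds a stem-loop of its snRNA, lies on chromosome 7 from 27187005 to 27196271, and its promoter is shown above. Control libraries held 0, 0, 25.2, 55.0, 2.81 and 29.8 normalized reads, and LOY libraries 66.5, 89.3, 44.6, 60.1, 109 and 175. Every LOY library was above 5 of the control libraries, and Control 12, at 55.0, was above LOY 9. Means were 18.8 ± 22.0 and 90.7 ± 46.9 (SD, n = 6), and the log2 difference was 3.48 ± 1.09 (limma unadjusted p = 0.00733, adjusted p = 0.644). edgeR gave 2.27 on the recovered reads, and the authors' deposited table also lists 2.27, with an adjusted p of 0.818. The 2 control libraries at 0 enter the limma value on the log scale, where they weigh more than in the ratio of means. Without Control 12 the groups did not overlap, as for 64 of all genes tested (0.657%), nor did they without LOY 9 (46 genes, 0.472%), and without Control 1, 2 and 12 the difference was 2.52. With each library's share of zero values as a covariate, the difference was 1.93 (limma unadjusted p = 0.143). Of the 50-base windows of Snrpa, 18.9% also occur in transcripts of 6 other genes. Snrpc, the C protein of the same particle, which supports pairing at the 5′ splice site, ranged from 187 to 624 in Control and from 421 to 654 in LOY, with the lowest coefficient of variation of the snRNP genes (24.1%).

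Of the U2-specific pair, Snrpb2, which encodes the B″ protein that binds U2 snRNA, lay at 1.08, 516, 19.1, 133, 7.49 and 0 in Control and at 47.3, 46.7, 85.6, 31.5, 212 and 89.0 in LOY. Of its control values 4 lay below every LOY value and Control 2 lay above them all. Its mean was lower in LOY (85.3 ± 66.0 against 113 ± 204), while its log2 difference was 2.05 ± 1.39, since the mean follows Control 2 and the log scale the libraries near 0. edgeR gave -0.40. Snrpa1, the A′ partner of that protein, was above 1 normalized read in Control 17 and in LOY 4, 10 and 19 only, and was not tested. Without Control 1, 2 and 12, the groups did not overlap for Snrpa and Snrpb2, both higher in LOY, and for Snrpd2, lower in LOY (226 to 479 against 78.7 to 173), with 246 of 9742 genes (2.53%) likewise separated in that smaller comparison. limma called 0 genes there, with 494 at an unadjusted p under 0.05.

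The SF3 genes, which place the U2 snRNP on the branch point, took 1104 ± 157 RPM in Control and 1121 ± 97.6 in LOY, with 0 of 9 past the test. Estimates were positive for 6 and negative for 3 in limma, and for 7 and 2 in edgeR. Sf3b1 (chromosome 1, 54985169 to 55027481), whose product clamps the branch point helix, lay at 13930, 5994, 10798, 9789, 8799 and 8473 in Control and at 9039, 8925, 10802, 8267, 8143 and 9711 in LOY. Control 1 and Control 2 were the highest and the lowest of all 12, and the LOY libraries lay between them. The log2 difference was -0.03 ± 0.17, with an interval from -0.39 to 0.32. Sf3b2, which contacts the intron upstream of the branch point, ranged from 4039 to 6376 in Control and from 4550 to 5700 in LOY, with a log2 difference that rounds to 0 and an SE of 0.11. Sf3b6, the p14 protein at the branch point adenosine, ranged from 784 to 1264 and from 814 to 1756 (0.10 ± 0.20), and Sf3b4 from 362 to 847 and from 489 to 843 (0.27 ± 0.24). The groups overlapped in all 4 genes.

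The SF3a subunits that join SF3b to the U2 particle were lower. Sf3a3 held 320, 1.28, 74.5, 102, 398 and 242 in Control and 241, 336, 475, 86.0, 287 and 206 in LOY, a log2 difference of 1.42 ± 1.10 that was 0.36 without Control 2 and 0.32 without Control 1, 2 and 12. Sf3a1 held 2.15, 0, 82.6, 320, 73.0 and 70.9 in Control and 114, 213, 107, 57.4, 112 and 195 in LOY, a difference of 2.15 ± 1.27 (limma unadjusted p = 0.116) that was 0.68 without Control 1, 2 and 12. In both genes the lowest library was Control 2, at 1.28 for Sf3a3 and 0 for Sf3a1. Sf3a2 ranged from 35.0 to 155 in Control and from 47.5 to 166 in LOY.

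The low values were concentrated in particular libraries. Of the 50 genes, 7 lay under 10 normalized reads in Control 1, 8 in Control 2, 2 in Control 6, 3 in Control 12, 2 in Control 17 and 3 in Control 18, against 0 in LOY 4, 1 in LOY 19 and 2 in each of the other LOY libraries. Over all listed genes the share under 10 was 33.6% in Control 1, 35.4% in Control 2 and 23.8% in Control 12, and 13.3% to 18.3% in the other 9 libraries. In each of the 12 libraries the splicing factors had the smaller share. At least 1 library was under 10 for 12 of the 50 genes (24%), against 51.7% of all listed genes. When each library's share of zero values was entered as a covariate, the median log2 difference was -0.05 for the 48 genes and -0.04 over all genes tested. Without Control 1, 2 and 12 these medians were -0.04 and -0.01. Without LOY 4, the LOY library highest in Ddx3y and Eif2s3y, 0 of the 48 were called. Their median was then 0.06, against 0.13 over all genes tested.

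**Figure D4:**
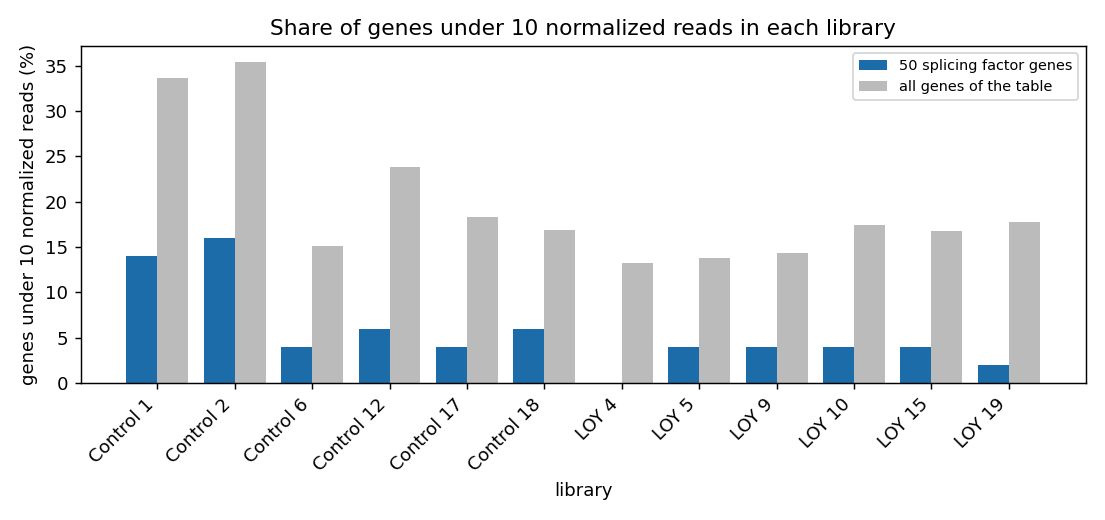
Share of genes under 10 normalized reads in each library, in percent, for the 50 splicing factor genes (blue) and all 11494 listed genes (grey). Control 1 and Control 2 have the highest share in both sets, 14% and 16% of the splicing factors, and LOY 4 has 0% of them.

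Several members share sequence with other genes, which can move reads between entries. Of the 50 genes, 16 had more than 10% of their 50-base transcript windows in common with another annotated gene and 15 had none. The share was 55.7% for Snrpert, 49.3% for Sf3b4, 46.7% for Hnrnpa1, 36.8% for Hnrnpf, 23.6% for Srsf5 and 20.8% for Hnrnpk. Gm7964, a copy of part of Hnrnpk, was itself listed at a mean of 519 normalized reads beside the 9245 of Hnrnpk, and Gm12966 at 127 beside the 7120 of Srsf5. Snrpert stood at a mean of 20.1 beside the 239 of Snrpe. Reads shared with a copy may be counted for either entry or for neither, so the values of these genes are uncertain by an amount that was not tested. Hnrnpm overlaps its neighbour March2 on the same strand and shares 21.6% of its windows with it. Strand is not recorded by this cDNA method, so members that overlap a gene on the opposite strand are uncertain too.

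The wider splicing pathway had no called gene either. Of 155 genes on 9 lists, 148 were in the table and 143 were tested, and 0 passed in limma, edgeR or DESeq2. At an unadjusted p under 0.05 there were 4 higher and 4 lower in LOY, beside 4.4% and 1.63% of all genes, and the median log2 difference was 0.17, against 0.14 over all genes. Of 16 genes for 3′ splice site and branch point recognition, Ddx42, a helicase that binds SF3B1, had the smallest p, with 513 ± 213 in Control and 792 ± 88.9 in LOY (SD, n = 6), a log2 difference of 0.72 ± 0.26 and an adjusted p of 0.762 in limma. Casc3, a core protein of the exon junction complex, stood at 622 ± 321 and 335 ± 163, a difference of -0.83 ± 0.37 (limma adjusted p = 0.81). Mbnl2, a muscleblind regulator, stood at 2431 ± 331 and 2024 ± 234 (-0.26 ± 0.12), and Bud31, a protein of the activated spliceosome, at 1297 ± 373 and 984 ± 158 (-0.37 ± 0.18). Gemin2, of the complex that loads Sm rings, stood at 27.3 ± 47.6 and 73.3 ± 61.8 (3.26 ± 1.43). The smallest p on the other lists belonged to Tnpo3, which imports SR proteins (0.69 ± 0.47), Thrap3, an SR-related protein (1.18 ± 0.61), Prpf31 of the U4/U6 particle (1.81 ± 0.90) and Lsm5 of the ring on U6 snRNA, at 34.9 ± 30.1 and 62.4 ± 28.9.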

How the data were processed

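RNA from 12 libraries of sorted mouse blood neutrophils, 6 Control and 6 LOY, was measured by full-length cDNA sequencing (SMART-Seq v4, then Nextera XT, per the labels' protocols). Tools in the submitters' processing notes are STAR 2.5.2b, Trimmomatic 0.36, bcl2fastq 2.17, and featureCounts with Subread 1.5.2; the builds listed there are mm10 and GRCm38. A single table of normalized signal, with a row per gene and a column per library, was deposited. Its values are whole multiples of 1 step per library (tolerance 0.02 reads, 100% of values), that is, gene reads divided by a size factor, so reads could be recovered. Beside them the authors deposited log2 fold changes and p-values, raw and adjusted, made by a tool not given in the sources used here. For the 50 genes, these fold changes and raw p-values are the same as those of DESeq2 run on the recovered reads. The lowest mean listed is 8.63. Names turned into dates by a spreadsheet (16) were restored by identifier.

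Because the values are normalized, the main test was limma 3.58.1 (R 4.3.3; trended, robust empirical Bayes) on log2(value + 1), for the 9742 genes that reached 10 normalized reads in 6 or more libraries, with Benjamini-Hochberg adjustment over them and a threshold of 0.05. The added 1 shrinks folds of low genes, but where part of a group is close to 0 the difference on this scale can be larger than the ratio of means. Intervals are 95%. edgeR 4.0.16 (quasi-likelihood) and DESeq2 1.42.0 were run on recovered reads as alternatives, beside other scalings, filters and pseudocounts, each library's share of zero values as a covariate, and libraries left out. The groups share no replicate number, so nothing was paired. Depth was 13743581 to 18459792 reads in Control and 17097739 to 19616066 in LOY, and 1 read was worth 0.82 to 1.28 normalized reads. Members and lists were chosen with earlier results of these data known. In each family the 3 genes with the smallest p and the 3 with the highest level per kb were named in the comparison, with any called gene, and from each pathway list the gene with the smallest p. Srsf1, Srsf2, Hnrnpa0, Hnrnpa2b1, Hnrnpu, Hnrnpll, Hnrnpd, Snrpc, Snrpd2, Snrpf, Snrpa1 and Sf3a2 were named outside this rule after their values were seen. Exon lengths and coordinates came from GENCODE vM21 (GRCm38). The fits were tested on simulated counts.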

Additional observations from a re-analysis of the deposited data

Results flagged for a closer look

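Within the groups of 6, 44 groups of values of the 22 named genes were checked for a single library whose gap to its nearest neighbour was a large part of the group's range (Dixon's criterion), and 6 stood out. For normally distributed values this criterion picks about 1 group in 20; these values are skewed and some genes were named for their small p, so that rate is only a guide. Srsf5 was 9366.53 normalized reads in Control 1, against 6401 to 7482 in the other control libraries. Hnrnpk was 11248.4 in Control 6, against 8642 to 9226. Sf3a1 was 319.627 in Control 12, against 0 to 82.6. Hnrnpa1 was 180.309 in LOY 5, against 74.0 to 107 in the other LOY libraries. Snrpb2 stood out in both groups, at 516.262 in Control 2, against 0 to 133, and at 211.639 in LOY 15, against 31.5 to 89.0.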

How the results depend on the processing

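No splicing factor passed the adjusted threshold under any of the 22 alternatives to the main fit. Genes of the whole table that passed numbered 54 in DESeq2, and 0 in edgeR, with a mean of 50 or more, under quantile normalization, with the covariate (the share of genes at 0) and without Control 1, 2 and 12. Leaving out 1 library gave 0 to 17 such genes (17 without Control 6). Of the 48 splicing factors, 1 to 4 then had an unadjusted limma p under 0.05, beside 467 to 783 of all 9742 genes. From 0 to 1 had no overlap between groups (Snrpa without Control 12 or LOY 9, Hnrnph1 without Control 18), beside 0.441% to 0.780% of all genes. edgeR had 1 of 48 at an unadjusted p under 0.05, beside 288 of 9802 genes. Without Control 1, 2 and 12 the groups did not overlap for 3, beside 2.53% of all genes.

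Sign changes were listed only for the 22 genes named by the rule. Among these, log2 differences that turned sign were, with the covariate, Hnrnpf -0.034, Hnrnpr -0.288, Snrpb -0.116, Snrpg -0.241, Sf3b2 0.195, Sf3a3 -0.148 and Sf3a1 -0.162. Without Control 1, 2 and 12 they were Srsf4 -0.04, Hnrnpf -0.060, Snrpb -0.035, Snrpg -0.299 and Sf3b2 0.163. Under edgeR they were Hnrnpk 0.000317, Snrpb2 -0.400 and Sf3b2 0.00573, under DESeq2 Snrpb2 -0.402, under TMM Sf3b2 0.0129, and under quantile normalization Hnrnpk 0.00303 and Sf3b2 0.0381. Among the same 22 genes, leaving out 1 library gave ranges across 0 for Srsf7 (-0.336 to 0.0732), Hnrnpk (-0.0536 to 0.0400), Hnrnpc (-0.0333 to 0.119), Hnrnpf (-0.0966 to 0.105), Snrpb (-0.0541 to 0.282), Snrpe (-0.0166 to 0.258), Sf3b1 (-0.162 to 0.0811), Sf3b2 (-0.0744 to 0.0573) and Sf3b6 (-0.0292 to 0.193). Other members turned sign too and are not all given here. With the covariate, Srsf6 went from 1.38 to -1.10 and Srsf1 from 0.14 to -0.44. The cause was not tested. Tested members with a mean under 500 normalized reads had a median standard error of 0.65 on the log2 scale, against 0.24 at 500 or more. The parts of depth and of spread between libraries in this were not tested. No paired analysis was possible because the groups share no replicate number.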
